A study of Mus musculus with 56 samples.

Results

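The methionine and one-carbon cycle genes described here are 9 liver genes: Mat1a, Gnmt, Ahcy, Bhmt, Cbs, Cth, Pemt, Shmt1 and Shmt2. They were chosen by name, and their rows were found by matching the gene identifiers of the deposited table to mouse symbols in the GENCODE annotation. All 9 were present, of 25158 genes tested. RNA was sequenced from livers of 56 female C57BL/6J mice, 9 weeks of age, that had food for 7 days only in the light phase (daytime-restricted feeding, DRF) or only in the dark phase (nighttime-restricted feeding, NRF, the reference). All animals lived under 12 h of light per day, had normal chow, and carried no transgene or mutation in the labels. Sampling ran every 4 h over 7 times from ZT0 to ZT24, where zeitgeber time (ZT) counts hours from lights on. Each of the 14 groups held 4 animals.

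The methionine cycle supplies the methyl groups of the cell. Mat1a encodes the liver methionine adenosyltransferase, which makes S-adenosylmethionine (SAM), the methyl donor. Gnmt, glycine N-methyltransferase, and Pemt, phosphatidylethanolamine N-methyltransferase, pass methyl groups from SAM to glycine and to phospholipid, and Ahcy hydrolyses the S-adenosylhomocysteine that remains. The homocysteine so formed is methylated back to methionine, in liver partly by Bhmt with betaine as donor, or leaves the cycle through cystathionine beta-synthase (Cbs) and cystathionine gamma-lyase (Cth), the transsulfuration enzymes that lead to cysteine. Shmt1 in the cytosol and Shmt2 in mitochondria convert serine to glycine and load folate with a one-carbon unit.

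Values are scaled counts: whole counts were rebuilt from the deposited table and multiplied by a scale for each library, so that libraries sum to between 889704 and 1117724. They resemble CPM and carry no length correction. The rebuilt counts of a library totalled between 325 and 732 M (1 M is 1000000 counts). They are more than the study's read depth, so precision was judged from the spread between animals and not from counting error. Between replicates of a group, correlations across genes lay between 0.937 and 0.987 over 84 pairs. In the check of the regimens, the clock genes Arntl, Dbp, Per2 and Nr1d1 had fitted peaks 10.2 to 11.9 h apart between DRF and NRF. The labels give no sequencing batch.

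The promoter window is printed for the members in whose window AGGTCA or CACGTG was found. It runs from 250 bases before to 50 bases after the transcription start, as RefSeq gives it on GRCm38.p6. The windows of Pemt, Shmt1 and Shmt2 held neither and are not printed. Windows matched 7 of the 9 members and held 2 for Pemt, with no entry for Mat1a and Cth. Capitals mark AGGTCA, a motif of nuclear receptors, read as TGACCT on the opposite strand, and CACGTG, the E-box that clock proteins can bind. All printed windows lie on the minus strand and are written 5′ to 3′. They are Gnmt at chr17:46729116-46729415, Ahcy at chr2:155074448-155074747, Bhmt at chr13:93637709-93638008 and Cbs at chr17:31637156-31637455.
Gnmt: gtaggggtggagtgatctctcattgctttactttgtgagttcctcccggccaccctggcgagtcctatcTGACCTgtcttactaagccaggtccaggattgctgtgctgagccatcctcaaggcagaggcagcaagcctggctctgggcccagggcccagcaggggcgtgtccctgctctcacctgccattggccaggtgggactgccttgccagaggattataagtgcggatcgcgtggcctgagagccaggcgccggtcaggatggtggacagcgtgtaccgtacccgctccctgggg
Ahcy: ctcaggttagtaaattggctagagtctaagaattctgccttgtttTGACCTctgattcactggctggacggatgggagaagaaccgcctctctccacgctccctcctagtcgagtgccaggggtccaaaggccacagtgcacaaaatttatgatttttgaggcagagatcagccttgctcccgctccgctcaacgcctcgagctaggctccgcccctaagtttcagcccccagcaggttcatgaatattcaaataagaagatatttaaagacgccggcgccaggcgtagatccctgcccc
Bhmt: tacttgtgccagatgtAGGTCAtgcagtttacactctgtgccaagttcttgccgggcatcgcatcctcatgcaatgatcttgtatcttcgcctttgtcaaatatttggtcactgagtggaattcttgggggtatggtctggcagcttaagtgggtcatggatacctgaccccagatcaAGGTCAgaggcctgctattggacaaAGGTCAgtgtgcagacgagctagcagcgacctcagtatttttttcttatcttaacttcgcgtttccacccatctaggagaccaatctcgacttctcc
Cbs: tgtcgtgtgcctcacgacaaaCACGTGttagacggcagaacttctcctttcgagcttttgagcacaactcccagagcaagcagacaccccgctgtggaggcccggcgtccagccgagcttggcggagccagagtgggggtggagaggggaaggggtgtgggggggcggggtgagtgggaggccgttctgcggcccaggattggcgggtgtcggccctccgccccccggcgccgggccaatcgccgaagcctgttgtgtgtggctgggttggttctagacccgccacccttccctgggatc
Bhmt held AGGTCA 3 times, beginning 234, 72 and 47 bases before the start, while Gnmt and Ahcy held it 1 time each. Cbs held 1 E-box, 229 bases before the start. Of 32851 promoter windows of the same length, 16.3% held AGGTCA on either strand and 7.15% held CACGTG. The forkhead site TGTTTAC (3.65% of all windows) and the cAMP response element TGACGTCA (1.79%) were in no window of a member, and the glucocorticoid receptor motif AGAACA (19.0%) was in 1 window of Pemt. None of these matches overlapped another. A match is a string of letters and not evidence of binding.

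The 9 genes are protein-coding, and their values are sums over exons. On GRCm38, GENCODE places Mat1a (ENSMUSG00000037798) on chromosome 14, 41105035 to 41124412, plus strand. It places Gnmt (ENSMUSG00000002769) on chromosome 17, 46725664 to 46729168, minus strand, and Ahcy (ENSMUSG00000027597) on chromosome 2, 155059310 to 155074497, minus strand. Bhmt (ENSMUSG00000074768) lies on chromosome 13, 93616675 to 93637961, minus strand. The transsulfuration genes are Cbs (ENSMUSG00000024039) on chromosome 17, 31608894 to 31637238, minus strand, and Cth (ENSMUSG00000028179) on chromosome 3, 157894248 to 157925077, minus strand. Pemt (ENSMUSG00000000301) lies on chromosome 11, 59970614 to 60046489, minus strand. The serine hydroxymethyltransferase genes are Shmt1 (ENSMUSG00000020534) on chromosome 11, 60788104 to 60811718, minus strand, and Shmt2 (ENSMUSG00000025403) on chromosome 10, 127517123 to 127522444, minus strand.

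Per kilobase of exon, Mat1a, Ahcy and Gnmt of the SAM steps had the highest levels of the 9. Mat1a stood at 1113 ± 243 scaled counts per kilobase (SD over 56 libraries), Ahcy at 666 ± 153, Gnmt at 541 ± 152, Bhmt at 391 ± 127 and Cth at 265 ± 83.2. Pemt followed at 129 ± 14.1, then Shmt1 at 56.7 ± 7.31, Cbs at 44.3 ± 12.9 and Shmt2 at 19.2 ± 2.31. Mat1a exceeded Ahcy, Cth exceeded Pemt, Pemt exceeded Shmt1 and Cbs exceeded Shmt2 in 56 of 56 libraries. The order within the other neighbouring pairs was not the same in every library: Ahcy was above Gnmt in 52, Gnmt above Bhmt in 47, Bhmt above Cth in 55 and Shmt1 above Cbs in 41. Levels of Cbs rest on an exon length found from the values (3343 bases), since the annotated length did not give whole counts. Mat1a, Ahcy and Bhmt had too many counts for their annotated length to be judged in this way, so an error in it would move their levels and their places in the order.

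Over the day as a whole, several genes of the cycle stood higher when food was given in the light phase. The mean of the fitted 24-h curve was higher under DRF for Mat1a, Gnmt, Ahcy, Bhmt and Cth, and lower for none (limma, Benjamini-Hochberg adjusted over all genes). These were 5 of 9 members, where 4.16% of all genes tested were called higher and 2.71% lower. Of the 6695 genes with a mean of at least 10 scaled counts, as all 9 members have, fitted and adjusted alone, 13.9% were called higher and 4.75% lower. At an unadjusted p of 0.05, 7 were higher, with Shmt1 and Shmt2, and 0 lower. The median log2 difference of the 9 was 0.35, against 0.00 over all genes. Gnmt differed most, by 0.58 ± 0.07 on the log2 scale (SE, adjusted p = 7.29e-08), followed by Cth (0.51 ± 0.08, 1.43-fold, adjusted p = 9.61e-06). Mat1a differed by 0.40 ± 0.05 (1.32-fold, adjusted p = 7.11e-09), Bhmt by 0.37 ± 0.09 (1.29-fold, adjusted p = 0.00376) and Ahcy by 0.35 ± 0.05 (1.27-fold, adjusted p = 2.83e-06). Pemt, Shmt1, Shmt2 and Cbs did not pass the threshold, with differences of 0.04 ± 0.04, 0.09 ± 0.04, 0.10 ± 0.04 and -0.03 ± 0.04. Over all alternatives on scaled counts, each library left out in turn included, the 5 called differences kept a limma adjusted p of at most 0.0212. The highest was that of Bhmt. This range does not cover the values as deposited.

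**Figure D1:**
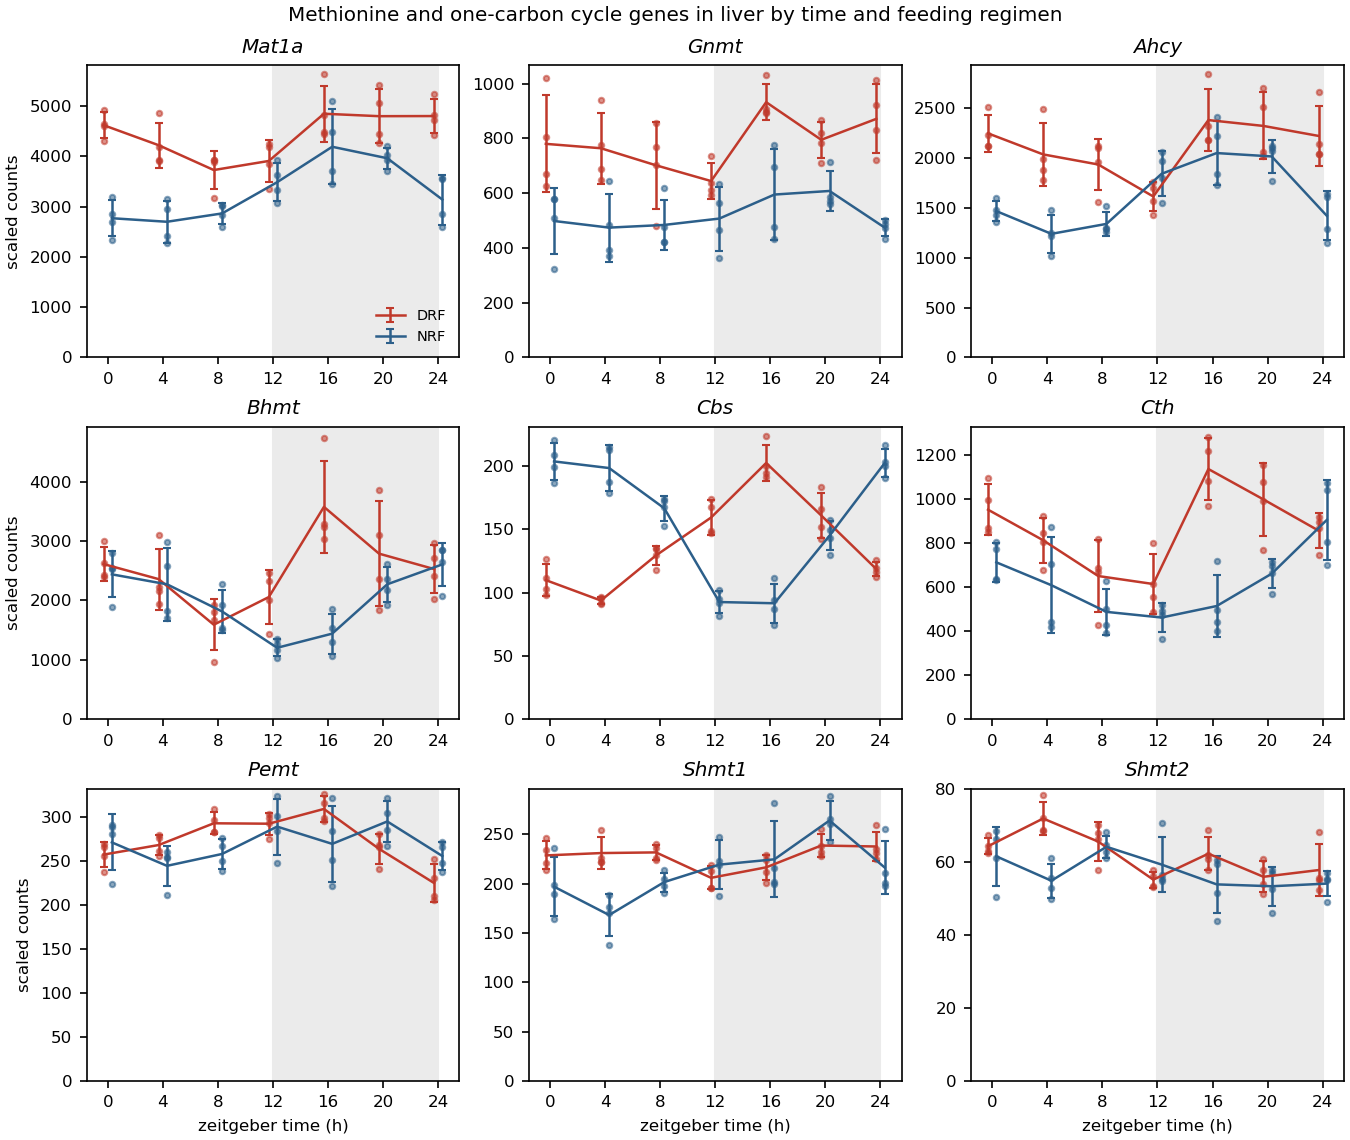
Scaled counts of each gene (vertical axis, from 0) by zeitgeber time in hours (horizontal axis) under DRF (red) and NRF (blue). Points are animals, lines join group means, bars are SD (n = 4) and grey marks the dark phase. For Mat1a, Gnmt and Ahcy the DRF line lies above the NRF line at ZT0, ZT4 and ZT24, for Bhmt and Cth the regimens part most at ZT16, and the lines of Cbs cross.

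**Figure D2:**
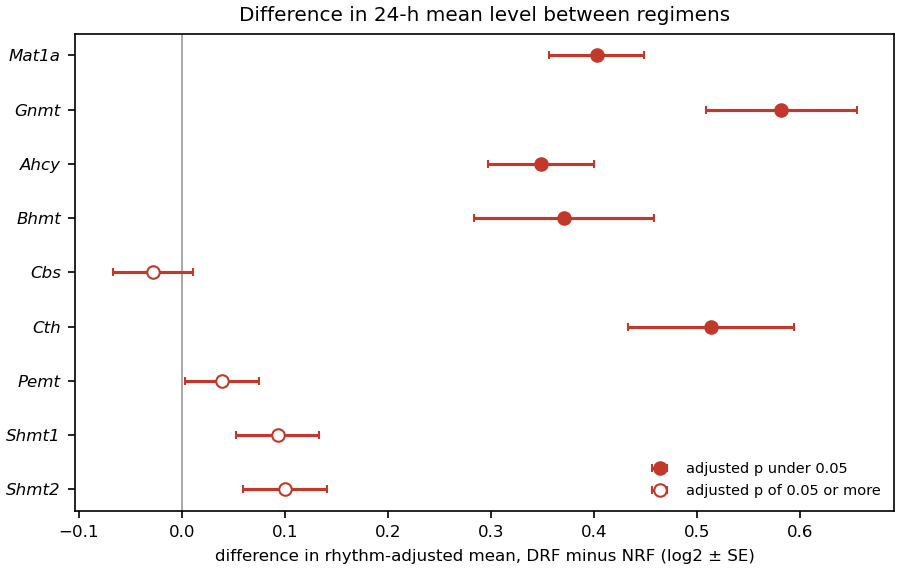
Difference in the mean of the fitted 24-h curve, DRF minus NRF, on the log2 scale with its SE, for the 9 genes. Filled points passed an adjusted p of 0.05 and lie between 0.35 and 0.58, while open points lie between -0.03 and 0.10.

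Mat1a, Gnmt and Ahcy, the steps from methionine through SAM to homocysteine, were all called higher under DRF at ZT24, ZT0 and ZT4. At ZT0 Mat1a stood at 4927, 4298, 4608 and 4655 scaled counts in the DRF animals and at 2331, 3202, 2855 and 2693 in the NRF animals. Every DRF value lay above every NRF value. The difference was 0.75 ± 0.12 on the log2 scale (1.68-fold, limma adjusted p = 9.73e-06). It was 0.65 ± 0.12 at ZT4 (adjusted p = 6.75e-05), 0.62 ± 0.12 at ZT24 (adjusted p = 0.000197) and 0.38 ± 0.12 at ZT8 (adjusted p = 0.0313). The ZT8 call was lost when any 1 of DRF replicates 1, 3 and 4 or NRF replicates 1 and 4 at that time was left out (adjusted p 0.0642 to 0.112). From ZT12 to ZT20 the differences were 0.17, 0.22 and 0.27, and none passed the threshold. At ZT16, when NRF livers were at their highest, the DRF values of 5646, 4829, 4444 and 4481 overlapped the NRF values of 3716, 4486, 3461 and 5107.

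Gnmt, which consumes SAM with glycine and so limits its level, showed the widest gap at ZT24. Its DRF values there were 719.5, 831, 1014 and 922 scaled counts, and its NRF values were 487, 473, 503 and 434. The groups did not overlap, and the difference was 0.87 ± 0.19 (1.82-fold, limma adjusted p = 0.000933). It was also higher under DRF at ZT4 (0.71 ± 0.19, adjusted p = 0.00538), at ZT16 (0.69 ± 0.19, adjusted p = 0.00961) and at ZT0 (0.66 ± 0.19, adjusted p = 0.0121). The ZT0 call was lost without DRF replicate 3 or NRF replicate 1 (adjusted p 0.0812 and 0.110), and the ZT16 call without NRF replicate 3 (0.0702). At ZT8, ZT12 and ZT20 the groups overlapped. Over all 28 libraries of a regimen Gnmt ran from 481 through a median of 781 to 1032 under DRF, and from 325 through 495 to 778 under NRF. In 27 of 28 DRF livers it was above the NRF median.

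Ahcy, which removes the by-product of each methyl transfer, followed Mat1a closely. At ZT4 its DRF values of 1995, 1784, 1878 and 2490.1 scaled counts all lay above the NRF values of 1217, 1479, 1247 and 1015. The difference was 0.72 ± 0.13 (1.64-fold, limma adjusted p = 4.43e-05). It was 0.65 ± 0.13 at ZT24, 0.61 ± 0.13 at ZT0 and 0.52 ± 0.13 at ZT8 (adjusted p = 0.000257, 0.000473 and 0.00364). At ZT12 the direction of the means turned, with 1763, 1569, 1699 and 1426 under DRF and 1546, 1799, 2056 and 1967 under NRF. These groups overlapped and the difference, -0.19 ± 0.13, did not pass the threshold. Ahcy shares 68.7% of the 31-base words in its transcripts with Gm4737, annotated as a retrogene, whose level was 4.94% of that of Ahcy. The reads of these copies cannot be fully told apart.

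Bhmt, the betaine-dependent route back to methionine, was called higher under DRF at ZT12 and ZT16. At ZT16 its DRF values were 4733, 3042, 3291 and 3238 scaled counts, and its NRF values were 1070.2, 1540.4, 1296 and 1855. No values overlapped, although DRF replicate 1 stood well above its group. The difference was 1.32 ± 0.22 (2.49-fold, limma adjusted p = 1.50e-05), and without that animal 1.18 (adjusted p = 0.000263). At ZT12 it was 0.75 ± 0.22 (adjusted p = 0.0118), with 2468, 2325, 2005 and 1431 under DRF against 1026, 1164, 1356 and 1261 under NRF. Those groups did not overlap either, but the call was lost without DRF replicate 1 (adjusted p = 0.0536). At ZT0, ZT4 and ZT24 the means were close, at 2612, 2358 and 2528 under DRF and 2439, 2272 and 2607 under NRF. Bhmt shares 27.1% of its 31-base words with the retrogene Gm5096, which stood at 2.71% of its level, and 3.25% of its exon bases overlap Gm15622 on the opposite strand.

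The transsulfuration enzymes differed from each other. Cbs, which commits homocysteine to cysteine synthesis, had an almost mirrored time course. At ZT4 it stood at 91.3, 96.1, 91.4 and 96.3 scaled counts under DRF and at 188, 215, 213 and 179 under NRF. At ZT16 it stood at 192, 195, 201 and 224 under DRF and at 74.2, 86.9, 93.9 and 111 under NRF. The groups were fully apart at both times, in opposite directions. The differences were -1.07 ± 0.09 at ZT4 (0.476-fold, limma adjusted p = 1.33e-12) and 1.15 ± 0.09 at ZT16 (2.22-fold, adjusted p = 9.18e-13). Cbs was lower under DRF at ZT0, ZT4, ZT8 and ZT24 and higher at ZT12 and ZT16, and only ZT20 of the 7 times did not pass (0.15 ± 0.09). Its highest group means were nearly equal, 204 ± 14.6 (SD, n = 4) for NRF at ZT0 and 203 ± 14.5 for DRF at ZT16.

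Cth, the next enzyme of the same route, had its largest difference at ZT16 as well. Its values there were 1280.1, 965, 1215 and 1079.6 scaled counts under DRF and 440.5, 496, 399 and 718 under NRF. The groups did not overlap, and the difference was 1.17 ± 0.20 (2.25-fold, limma adjusted p = 2.39e-05). At ZT20 it was 0.58 ± 0.20 (adjusted p = 0.0391), a call lost when any 1 of 7 of the 8 livers at that time was left out, all but DRF replicate 4 (adjusted p 0.0511 to 0.130). At no time was Cth called lower under DRF. At ZT4, where Cbs was lower under DRF, Cth had 805, 677, 844 and 921 against 702, 871, 418 and 439 under NRF, and these groups overlapped. At an unadjusted p of 0.05 (limma) Cth was higher under DRF at ZT0, ZT4, ZT8 and ZT12 too, by 0.42, 0.48, 0.40 and 0.40 (each ± 0.20). The groups did not overlap at ZT0. The ZT4 difference passed among genes with at least 10 scaled counts (limma adjusted p = 0.0459) and without NRF ZT4 replicate 2 (0.0130).

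Differences were fewer for Pemt and the serine hydroxymethyltransferases. Pemt, the methyltransferase that makes phosphatidylcholine in liver, was called at none of the 7 times taken singly. At an unadjusted p of 0.05 it differed at 3 of them, ZT8, ZT16 and ZT24. Its group means stayed between 225 ± 21.5 and 309 ± 14.5 (SD, n = 4) under DRF and between 245 ± 22.6 and 295 ± 23.6 under NRF. Shmt1 was called only at ZT4, with 222, 222, 226 and 255 under DRF and 188, 176, 169.7 and 138 under NRF. These groups were apart, by 0.46 ± 0.09 (1.38-fold, limma adjusted p = 0.000245). Shmt2 also was called only at ZT4, with 68.8, 68.4, 71.97 and 78.3 against 55.6, 60.97, 52.8 and 49.9. They too were apart, by 0.39 ± 0.09 (1.31-fold, adjusted p = 0.00150). At an unadjusted p of 0.05 (limma), Shmt1 differed at ZT0 and ZT8 too (0.22 ± 0.09 and 0.20 ± 0.09), with groups that did not overlap at ZT8, and Shmt2 at ZT16 (0.21 ± 0.09). Shmt1 and Shmt2 share 4.74% and 1.03% of their exon bases with Smcr8 and Ndufa4l2 on the opposite strand.

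Time by time, calls for the SAM genes lay mostly between ZT24 and ZT8, and those for Bhmt and Cth between ZT12 and ZT20. At ZT0, 3 members were called higher under DRF and 1 lower, where 8.07% and 8.09% of all genes were. At ZT4 the counts were 5 higher and 1 lower (10.9% and 9.64% of all genes), and at ZT8 they were 2 and 1 (5.78% and 7.35%). At ZT12, 2 were higher and 0 lower (7.13% and 8.20%), and at ZT16, 4 and 0 (8.84% and 6.49%). At ZT20, 1 was higher and 0 lower (7.77% and 6.13%), and at ZT24, 3 and 1 (7.16% and 7.01%). At ZT12, ZT16 and ZT20 the count of lower members was also 0 at an unadjusted p of 0.05 (limma). Of the genes with at least 10 scaled counts, the shares called higher and lower were 19.8% and 14.7% at ZT0, 26% and 14.1% at ZT4, 15.4% and 13.7% at ZT8, 15.4% and 16.5% at ZT12, 21% and 12.9% at ZT16, 18.4% and 12.3% at ZT20 and 16.8% and 15.1% at ZT24. In all, 24 of 63 differences passed the threshold, and each member differed at 1 or more times in the joint test, as 42.9% of all genes and 73.7% of those with at least 10 scaled counts did. Pemt passed that joint test (adjusted p = 0.0256) without a single time that passed.

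**Figure D3:**
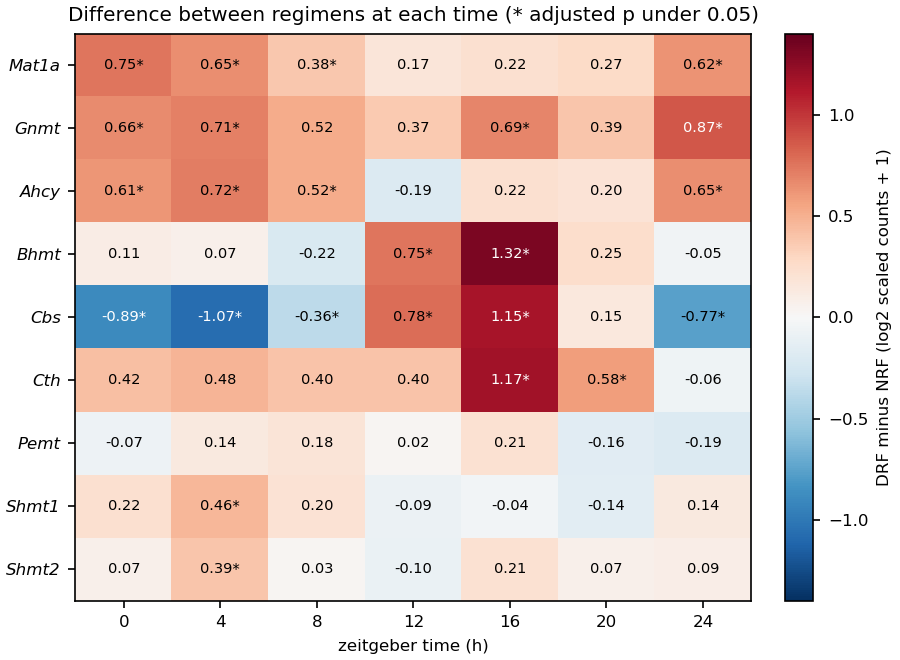
Log2 difference, DRF minus NRF, of each gene (rows) at each zeitgeber time in hours (columns), coloured from blue (lower under DRF) to red (higher). Asterisks mark the 24 of 63 differences with an adjusted p under 0.05. Mat1a, Gnmt and Ahcy are red at ZT0, ZT4 and ZT24, Bhmt and Cth are reddest at ZT16, and Cbs runs from -1.07 at ZT4 to 1.15 at ZT16.

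A 24-h rhythm was tested with a cosine curve in each regimen. Under DRF 8 of 9 members were rhythmic, all but Gnmt, where 38.1% of all genes and 67.4% of those with at least 10 scaled counts were. Under NRF 6 of 9 were rhythmic, all but Gnmt, Pemt and Shmt2, where 38.9% and 62.0% were, so the NRF share of members was near that of genes at such levels. Pemt was called rhythmic under NRF with median-of-ratios scaling, with a length correction, with the values as deposited and without NRF ZT16 replicate 1. Among the genes rhythmic in both regimens, Cbs had the largest amplitude (the distance from the mean of the curve to its peak), 0.50 ± 0.04 on the log2 scale under DRF and 0.65 ± 0.04 under NRF. Bhmt followed with 0.43 ± 0.09 and 0.51 ± 0.08, Cth with 0.38 ± 0.08 and 0.41 ± 0.08, Ahcy with 0.21 ± 0.05 and 0.41 ± 0.05, and Mat1a with 0.20 ± 0.05 and 0.34 ± 0.05. Shmt1 had amplitudes of 0.07 ± 0.04 and 0.23 ± 0.04. Its DRF rhythm was lost in a joint fit of both regimens, with the exact rank test, without ZT24 and without any 1 of 5 libraries (DRF ZT0 replicate 3, ZT12 replicates 2 and 4, ZT16 replicate 3 and ZT24 replicate 3, adjusted p 0.0514 to 0.0805). The DRF rhythm of Shmt2 (0.13 ± 0.04) was lost with the values as deposited, with median-of-ratios scaling, with the exact rank test and without ZT0. It was also lost without any 1 of 8 libraries (all 4 of DRF ZT4, ZT8 replicates 3 and 4 and ZT20 replicates 1 and 4, adjusted p 0.0501 to 0.0824). All 6 amplitudes were smaller under DRF, but no amplitude difference passed the threshold (limma coefficients with a Wald test, 4 of 6 under an unadjusted p of 0.05), where 12.2% of the genes rhythmic in both regimens did, and 15.5% of those with at least 10 scaled counts. The difference for Ahcy, -0.20 ± 0.07, had an adjusted p of 0.0679, that for Cbs, -0.15 ± 0.06, one of 0.0641, and that for Shmt1, -0.16 ± 0.06, one of 0.0613.

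Peak times moved in different directions along the pathway. Mat1a peaked at 20.4 ± 0.85 h under DRF and at 16.6 ± 0.49 h under NRF, which is 3.82 ± 0.98 h later under DRF. Ahcy peaked 4.52 ± 1.06 h later, at 21.1 ± 0.96 h against 16.6 ± 0.46 h. Bhmt peaked 5.41 ± 1.02 h earlier under DRF, at 19.3 ± 0.74 h against 0.67 ± 0.69 h, and Cth 3.24 ± 1.13 h earlier, at 20.1 ± 0.79 h against 23.3 ± 0.80 h. For Cth the difference in rhythm between regimens was not called (limma adjusted p = 0.0607). Under DRF the fitted peaks of Mat1a, Ahcy, Bhmt and Cth therefore fell between 19.3 and 21.1 h, whereas under NRF they lay between 16.6 and 0.67 h. Cbs was phase-inverted, with peaks at 15.6 ± 0.29 h and 2.40 ± 0.23 h, 10.8 ± 0.37 h apart. The peaks of Shmt1 lay 7.34 ± 2.27 h apart, with the DRF peak poorly fixed (0.75 ± 2.18 h).

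**Figure D4:**
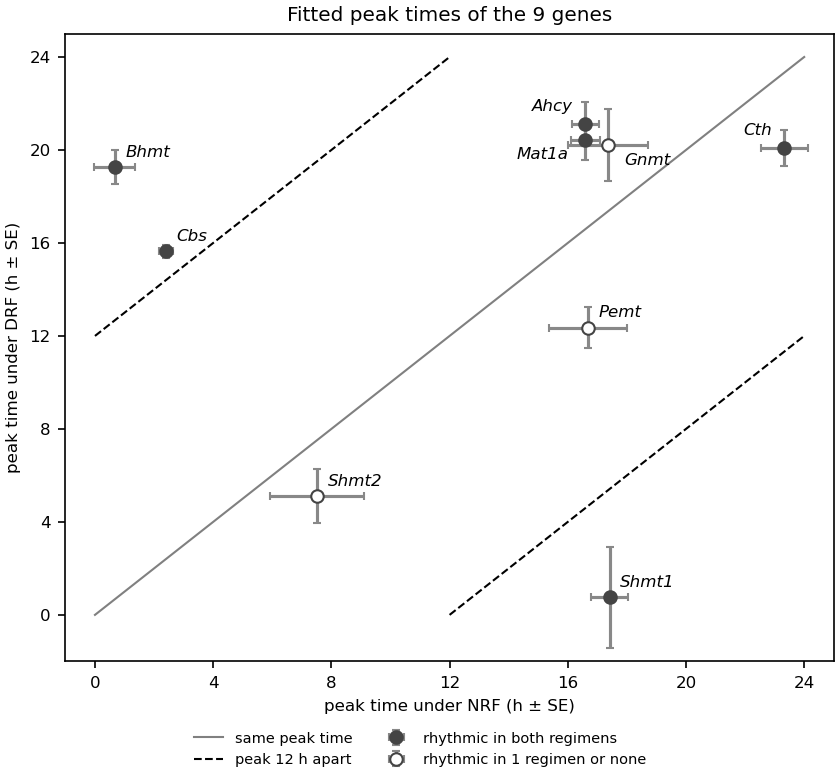
Fitted peak time of each gene under DRF (vertical axis, h) against NRF (horizontal axis, h), with SE. The solid line marks the same peak time, dashed lines mark peaks 12 h apart, filled points are rhythmic in both regimens. Cbs lies near a dashed line, and Mat1a, Ahcy and Cth lie off the solid line, with peaks 3.24 to 4.52 h apart. The rhythm difference between regimens was not called for Cth. The DRF peaks of Mat1a, Ahcy, Bhmt and Cth lie between 19.3 and 21.1 h.

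The rhythm itself, meaning amplitude and peak time together, differed between regimens for Mat1a, Ahcy, Bhmt, Cbs, Pemt and Shmt1, 6 of 9, where 39.1% of all genes and 65.6% of those with at least 10 scaled counts did, so the share of members was near that of genes at such levels. Adjusted over those genes alone, 7 of 9 members passed for the rhythm difference and 26 of 63 for single times. The limma adjusted p was 1.34e-22 for Cbs and 0.0326 for Pemt, the weakest. The call for Pemt was lost when ZT24 was left out. It was also lost without any 1 of 6 libraries (DRF ZT24 replicates 1 and 2, DRF ZT8 replicate 4, NRF ZT8 replicate 1, NRF ZT12 replicate 1 and NRF ZT20 replicate 2, adjusted p 0.0518 to 0.0592). Cth missed the threshold (adjusted p = 0.0607) and passed it without any 1 of 9 libraries (DRF ZT12 replicates 3 and 4, replicate 4 of DRF ZT4, ZT8 and ZT20, NRF ZT4 replicates 3 and 4, NRF ZT12 replicate 3 and NRF ZT16 replicate 4, 0.0231 to 0.0486). The DRF rhythm was also compared with the NRF rhythm moved by 12 h. This test responds to a change of amplitude as well as of peak time. Gnmt, Pemt and Shmt2 had no called NRF rhythm to move. The test alone therefore cannot say whether a gene followed the inverted meal. The DRF rhythm departed from the moved curve for 9 of 9 members, where 34.6% of all genes and 56.2% of those with at least 10 scaled counts did. The departure passed for the phase-inverted Cbs as well (limma adjusted p = 0.00102). Its peaks lay 10.8 ± 0.37 h apart, short of 12 h. Its fitted amplitudes were 0.50 under DRF and 0.65 under NRF, a difference that did not pass the threshold. The parts of peak time and amplitude in this departure were not tested. Gnmt passed at an adjusted p of 0.0344 and lost the call without any 1 of 9 libraries (DRF ZT8 replicate 2, DRF ZT16 replicate 1, NRF ZT4 replicates 3 and 4, NRF ZT8 replicates 1 and 4, NRF ZT16 replicates 2 and 4 and NRF ZT20 replicate 4, 0.0512 to 0.0765).

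Samples at ZT24 and ZT0 stand for the same clock time on successive days. No member differed between them under DRF (0 of 9, where 3.12% of all genes were called, limma) or under NRF (0 of 9, where 7.94% were). At an unadjusted p of 0.05 the counts were 1 (Pemt under DRF, -0.20 ± 0.09) and 0.

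In whole liver, a change in the number of cells of a type and a change in RNA per cell cannot be told apart. The hepatocyte list (Alb, Apoa1, Ttr, Serpina1c and Cps1) summed to between 102510 and 138984 scaled counts under DRF and between 97891 and 155354 under NRF, so hepatocyte markers were abundant in every library. Of these 5, 1 had a higher 24-h mean under DRF (Cps1) and 2 a lower one (Apoa1 and Serpina1c, the latter uncertain since it has near-identical paralogs). All 5 of 5 periportal markers (Cyp2f2, Hal, Sds, Pck1 and Gls2) had a higher 24-h mean under DRF, summing to a median of 2612 (1591 to 3384) against 1999 (1615 to 2870.1). Among them, Hal, Sds and Gls2 break down amino acids and Pck1 makes glucose precursors. Of 5 pericentral markers 1, Oat, was higher and 0 lower, with sums of 6091 to 9956 under DRF and 4239.8 to 9945 under NRF. All 5 of 5 red blood cell markers were higher under DRF, at 567 to 2039 against 469 to 1351. Kupffer cell, endothelial, stellate and cholangiocyte lists had 0 of 5 markers called each by limma, and 0, 0, 0 and 2 at an unadjusted p of 0.05. Of the adipocyte list 1 of 5 genes (Cidec) was in the table and was called higher, and of the pancreatic acinar list 1 of 5 (Cela2a), not called. No marker in the table was at 0 in every library. The part of these lists in the higher means of the 5 members was not tested. A rank correlation of exon length with each library's deviation also moved with the groups, at -0.27 ± 0.02 (SD, n = 4) under DRF and 0.00 ± 0.18 under NRF at ZT4. With a correction for length the counts at each time and of the means did not change.

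Over the 14 group means of log2 levels the SAM genes resembled one another, and Bhmt resembled Cth. The Pearson correlation was 0.95 between Mat1a and Ahcy, 0.92 between Mat1a and Gnmt, 0.87 between Gnmt and Ahcy, and 0.89 between Bhmt and Cth. Cbs correlated with Cth at 0.29 and with Ahcy at -0.50. These points share animals and regimens, so they are a description. Of 6686 other genes with a mean of at least 10 scaled counts, Uroc1, urocanase of histidine breakdown, was most like both Mat1a (0.94) and Gnmt (0.95). Ass1 of the urea cycle was most like Cth (0.88), and Dhrs3 most like Cbs (0.98). For Ahcy and Bhmt the most alike genes were their retrogenes Gm4737 (0.96) and Gm5096 (0.998). Gm4737 shares 68.7% of the 31-base words of Ahcy, and Gm5096 shares 27.1% of those of Bhmt. Reads of such copies cannot be fully told apart, and the part of misassigned reads in these correlations was not tested. The next most alike genes were Gpt2 for Ahcy (0.95) and Snx33 for Bhmt (0.88). Mpnd was most like Pemt (0.91), Cpped1 most like Shmt1 (0.91) and Atp5g2, a subunit of ATP synthase, most like Shmt2 (0.91).

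Around the 9 members, 64 further genes of the pathway were read, all of them tested. Of these, 16 had a higher mean under DRF and 0 a lower one (limma, 23 and 4 at an unadjusted p of 0.05). Of all genes, 4.16% and 2.71% were called, and of those with at least 10 scaled counts, 13.9% and 4.75%. Not all of the 64 genes reach that level. Their median log2 difference was 0.05. The rhythm differed between regimens for 42 of 64 (39.1% of all genes, 65.6% of those with at least 10 scaled counts), and the DRF rhythm departed from a 12-h shift for 31 (34.6% and 56.2%). Among choline, betaine, sarcosine and glycine genes 5 of 12 were higher: Dmgdh (0.32) and Sardh (0.32), which demethylate dimethylglycine and sarcosine, and Chdh (0.11), Aldh7a1 (0.15) and Dld (0.15). Dimethylglycine is the product of Bhmt and sarcosine that of Gnmt. These 5, and the genes named as higher in the next paragraph, were picked out after their values were seen.

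The counts in this paragraph stand beside 4.16% of all genes called higher, and 13.9% of those with at least 10 scaled counts. Of 16 folate genes, enzymes and transporters among them, 3 were higher under DRF, including Aldh1l1 (0.35) and Mthfd1 (0.14). Of 8 genes listed for methionine adenosylation, remethylation and likeness to Ahcy 2 were, Bhmt2 (0.19) and the Ahcy-like gene Ahcyl1 (0.09). Of 6 genes listed with the other methyltransferases, among them the amidinotransferase gene Gatm, 3 were, Hnmt (0.37), Nnmt (0.32) and Tpmt (0.15). Of 10 transsulfuration, cysteine and glutathione genes 2 were, Suox (0.34) and Sqor (0.12), and of 9 polyamine and salvage genes 1 was, Adi1 (0.11). None of the 3 serine synthesis genes was called for the mean (0 lower and 0 higher by limma, 0 at an unadjusted p of 0.05).

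The genes named next had the smallest adjusted p of the rhythm difference in their group, a choice that favours peaks far apart, so their peak times are a description. In the choline group they were Chka, choline kinase, with peaks 10.8 ± 0.36 h apart, and the glycine cleavage genes Amt (11.9 ± 0.61 h) and Gldc (7.98 ± 0.74 h). Chka went from 7.33 ± 0.69 scaled counts (SD, n = 4) at ZT0 to 32.7 ± 3.57 at ZT12 under DRF, and from 6.52 ± 0.49 at ZT12 to 40.9 ± 8.54 at ZT20 under NRF. In the list of methionine adenosylation, remethylation and Ahcy-like genes they included Mtrr (10.1 ± 1.15 h) and the Ahcy-like gene Ahcyl2 (8.67 ± 1.26 h). Among folate genes they included Fpgs (11.6 ± 0.86 h) and Slc25a32 (6.73 ± 0.60 h), the mitochondrial folate carrier. Downstream of Cbs and Cth they were Gclc (8.21 ± 0.64 h), the catalytic subunit of glutamate-cysteine ligase, Ethe1 (11.9 ± 0.88 h) and Cdo1 (11.4 ± 0.87 h), cysteine dioxygenase. Cdo1 rose from 743 ± 84.6 at ZT4 to 1837 ± 126 at ZT16 under DRF.

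The remaining groups held small and large shifts. Of the polyamine and salvage genes Odc1, ornithine decarboxylase, shifted by 9.93 ± 0.74 h, Srm by 11.8 ± 0.89 h and Adi1 by 9.40 ± 1.13 h. Of the other methyltransferases Gamt shifted by 5.03 ± 1.07 h, Nnmt by 1.82 ± 0.71 h and Hnmt by 4.04 ± 3.70 h, the last with no rhythm called under DRF. In serine synthesis, Psph had peaks 11.3 ± 1.41 h apart, with no rhythm called under NRF (limma adjusted p = 0.0679), and Phgdh and Psat1, both near 1 scaled count or below, showed no called difference. All SEs of peak times are from the fit.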

How the data were processed

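Liver RNA was sequenced from 56 mice in 14 groups, 28 per regimen. Per the labels, ribosomal RNA was depleted and libraries were strand-specific and paired, although the molecule field says polyA RNA. The submitters' processing notes name CASAVA 1.8, featureCounts 1.5.0-p3 and the builds mm10 and GRCm38.p6. The aligner and the strand setting of the counting are not given in the sources used here.

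The authors deposited gene values named TPM, treated here as a score because they are not linear in counts. Each value times the exon length (GENCODE vM21) followed a logarithm of 1 plus a library scale times whole counts. This curve was estimated for each library from 12112 genes and checked on 12111 others, of which 96.2 to 99.1% of values, by count range, lay within 0.05 of a whole number, where 10% would by chance. Of 25415 genes, 24268 had Ensembl identifiers and 24223 matched. The annotated length gave whole counts for 23082, a searched length for 1972, and 104 had too many counts to judge, which left out 257. Mat1a, Ahcy and Bhmt are among the 104, and an error in their length would move their levels and stretch or shrink their differences without turning them. Scaled counts are the library scale times the counts, 1 unit being 304 to 723 recovered counts. Because the recovered counts are not reads, no interval for counting error was computed. A filter on a mean deposited value of 0.1 removed 0 genes. The design foresaw a linear unit and its tests were kept on log2(scaled count + 1), a scale that understates changes of low genes. The transcript and circular RNA tables were not used, and 0 columns were left without a sample.

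Rhythms were tested with a 24-h cosine curve in limma 3.58.1 (R 4.3.3), moderated with a mean-variance trend, per regimen for rhythmicity and over both regimens for differences in mean, rhythm and single times. A departure from a 12-h shift was the same fit with the NRF curve inverted. Adjusted p-values are Benjamini-Hochberg over all 25158 genes (amplitude differences, by a Wald test with the delta method, over the 5631 genes rhythmic in both regimens), with a threshold of 0.05. A fold is the back-transformed log2 difference. The fits were tested on simulated data. The members, gene lists and tests were chosen with earlier results of these data known. The text names the 9 members, the 3 genes of each of 7 pathway groups with the smallest adjusted p of the rhythm difference, the gene most like each member over group means, and 4 clock genes, except some pathway genes that are not reported here. It also names, outside that rule, the cell type markers, the next most alike genes of Ahcy and Bhmt, and the pathway genes called for the mean. Those next most alike genes and pathway genes were named after their values were seen. Alternatives were other pseudocounts, scalings and filters, the values as deposited, a length correction, a replicate block, robust moderation, other rhythm tests, times left out and each library left out. Same replicate numbers are different animals, which share only a number.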

Additional observations from a re-analysis of the deposited data

Results flagged for a closer look

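In 126 groups of 4 livers, 14 for each of the 9 genes, a sample was flagged where its gap to the nearest other sample took up more of the group's range than Dixon's 95% critical value allows. Chance flags about 1 in 20 such groups, or 6.30, and 11 were flagged. High samples under DRF were Bhmt in replicate 1 at ZT16 (4733 scaled counts, the others 3042 to 3291), Gnmt in the same liver (1032, the others 892 to 908), Ahcy in replicate 3 at ZT24 (2667, the others 2037 to 2144) and Shmt1 in replicate 4 at ZT4 (255, the others 222 to 226). The low sample under DRF was Mat1a in replicate 2 at ZT8 (3163, the others 3887 to 3934). High samples under NRF were Ahcy in replicate 3 at ZT8 (1523, the others 1255 to 1294), Gnmt in replicate 4 at ZT20 (715, the others 560.4 to 585) and Shmt2 in replicate 2 at ZT12 (70.5, the others 54.7 to 56.3). Low samples under NRF were Ahcy in replicate 1 at ZT20 (1772, the others 2068 to 2124), and Pemt in replicate 1 at ZT0 (224, the others 281 to 292) and in replicate 1 at ZT4 (211, the others 253 to 260.0).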

How the results depend on the processing

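The number of members with a different 24-h mean was 5 under every alternative and without any 1 library. With the values as deposited, on the log2(value + 0.1) scale, 3 members had a different rhythm instead of 6 (Mat1a, Pemt and Shmt1 were lost), 9 differences between ZT24 and ZT0 passed instead of 0, and 0 passed at ZT8 and 0 at ZT20 instead of 3 and 1. Mat1a at ZT24 and Gnmt at ZT16 were lost too (limma adjusted p = 0.0607 and 0.0810), and Shmt1 at ZT0 was gained (0.0313). In all, 19 of 63 single-time differences passed there instead of 24. The joint test over times and the departure from a 12-h shift each passed for 8 members instead of 9. This scale is a logarithm of values already on a log scale, and Gnmt was called rhythmic in both regimens there. An amplitude difference was called for 2 members, Ahcy and Shmt1, with median-of-ratios scaling and also 2 with the length correction, instead of 0. Leaving out 1 library gave 0 to 2 such calls (Ahcy without DRF ZT12 replicate 4, DRF ZT16 replicate 1, NRF ZT16 replicate 1 or 3 or NRF ZT4 replicate 2, Cbs without DRF ZT0 replicate 2, DRF ZT16 replicate 4, DRF ZT20 replicate 1, NRF ZT16 replicate 4 or NRF ZT4 replicate 1 or 4, and Shmt1 without NRF ZT16 replicate 1, 2 or 3, NRF ZT24 replicate 1 or NRF ZT8 replicate 2 or 4), 7 to 8 members rhythmic under DRF, 6 to 7 under NRF, 5 to 7 with a different rhythm, 8 to 9 departing from a 12-h shift, and 23 to 26 of 63 differences at single times, with 3 to 5 at ZT0, 6 to 7 at ZT4, 2 to 5 at ZT8, 1 to 2 at ZT12, 3 to 5 at ZT16, 0 to 1 at ZT20 and 4 at ZT24. ZT8 reached 5 without DRF ZT8 replicate 2. The departure from a 12-h shift was lost for Shmt2 with median-of-ratios scaling and with the values as deposited, and for Gnmt without ZT24 (limma adjusted p = 0.0522). No called value changed sign. With the replicate number as a block, 5 means, 6 rhythm differences and 24 single-time differences passed, the same counts as without it. Same-numbered samples of different groups deviated together no more than others (median correlation 0.00 over 364 pairs, -0.00 over 1092 pairs with other numbers), so the numbers do not pair the samples. The cause of these changes was not tested. Depth cannot be read from the recovered counts, so precision was judged from the SE between animals alone.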
